A study of Rattus norvegicus with 12 samples.

Results

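The abundance of transcripts in the left ventricle of rats that had received a control vector was described from 6 of the 12 arrays of the series, namely all those titled AAV-HSA. The rats were of the Wistar background and were given, through a tail vein, an adeno-associated viral vector of serotype 9 that coded for human serum albumin (HSA). Hearts 1, 3 and 5 came from male rats sampled after 4 months of expression, in which the injection had been repeated, and hearts 2, 4 and 6 came from female rats sampled after 2 months (n = 3 each). In these hearts the effects of sex, of duration and of the second injection therefore cannot be told apart, and the age of the rats is not given in the sources used here. All 6 rats received the vector, and no probe was paired with the rat albumin gene in the annotation used here. Each array measured the left ventricle of 1 heart with bead-bound probes, whose brightness is called the signal.

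The wall of the left ventricle consists by volume mainly of cardiomyocytes, which contract continuously and obtain nearly all of their ATP from oxidative phosphorylation in mitochondria. Force is made by the sarcomere, in which myosin thick filaments pull on actin thin filaments when calcium, released from and returned to the sarcoplasmic reticulum, binds to troponin. Capillary endothelial cells, fibroblasts, mural cells of vessels, macrophages and nerve fibres lie between the cardiomyocytes, and many proteins of muscle and metabolism exist as several isoforms, of which the adult heart uses a characteristic set.

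The arrays carried 22517 probes, of which 7886 (35.0%) had a detection p under 0.05 in all 6 hearts and are called detected here. A further 2898 probes were detected in some hearts and 11733 in none. In single hearts 39.2% to 42.1% of the probes were detected, and the normalized log2 values of the detected probes correlated with a Pearson's r of 0.986 to 0.991 between hearts, across probes of the same samples. Of the detected probes, 6009 were paired with 1 gene symbol, covering 5921 genes, and 1877 had no gene name here. Their mean signals extended from 188 to 42448, a 225-fold range, and the median was 457. The signal also depends on how well a probe binds its target, so that differences between genes below are differences of signal and not of transcript number. As an example, the probes of Actc1 and Myl2, which code for the main actin and the regulatory light chain of the adult ventricle, averaged signals of 388 and 1274, while the essential light chain Myl3 averaged 38736. Absence of detection is limited in the same way, since the probes of Actg1, a cytoplasmic actin, and Hsp90ab1, a chaperone that nearly every cell uses, were detected in no heart.

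The brightest transcripts were those of ATP synthesis, calcium return and contraction. Atp5f1a, the alpha subunit of the catalytic part of ATP synthase, had the highest mean signal of all probes (42448 ± 1676, SD, n = 6), followed by Atp2a2, the calcium pump SERCA2 of the sarcoplasmic reticulum (42109.9 ± 1008). The signals of Atp5f1a were 41534, 43536 and 41807 in hearts 1, 3 and 5, against 42019.7, 45243 and 40547 in hearts 2, 4 and 6. Atp5f1a was brighter than Atp2a2 in 3 of the 6 hearts, so that the order of these neighbours did not exceed the spread between hearts. The first probe that was dimmer than Atp5f1a in every heart stood at rank 3 and has no gene name here.

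Among the other named probes at the top, Atp5f1b, the catalytic beta subunit of ATP synthase, ranked 4 (mean signal 39389.6), and the ventricular essential myosin light chain Myl3 ranked 5. Cryab, a small heat shock protein that guards desmin and titin, ranked 7 and had the lowest coefficient of variation of these 25 probes (CV, the SD over the mean, 2.35%). Sv2b, a membrane glycoprotein best known from synaptic vesicles, ranked 8 with a mean signal of 37818. The muscle creatine kinase Ckm, which shuttles high-energy phosphate, ranked 9, and Atp5mc1, an isoform gene of the rotating c ring of ATP synthase, ranked 10. Lpl, the lipoprotein lipase that releases fatty acids from circulating triglyceride, ranked 15, and the ADP/ATP carrier Slc25a4 of the inner mitochondrial membrane ranked 20. Cardiac troponin T (Tnnt2), tropomyosin (Tpm1) and cardiac troponin I (Tnni3) held ranks 16, 17 and 23. The remaining genes at this level were Hspb6 at rank 19, Atp5po at 21, Cox8b at 22, the iron store Fth1 at 24, the myosin heavy chain Myh6 at 26, Ldhb at 28, the fatty acid binder Fabp3 at 29, Myh7 at 30, Ndufb9 at 31 and myoglobin (Mb), the oxygen store of muscle, at 32. These 25 named probes stood among 32 probes, the others of which have no gene name here.

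**Figure D1:**
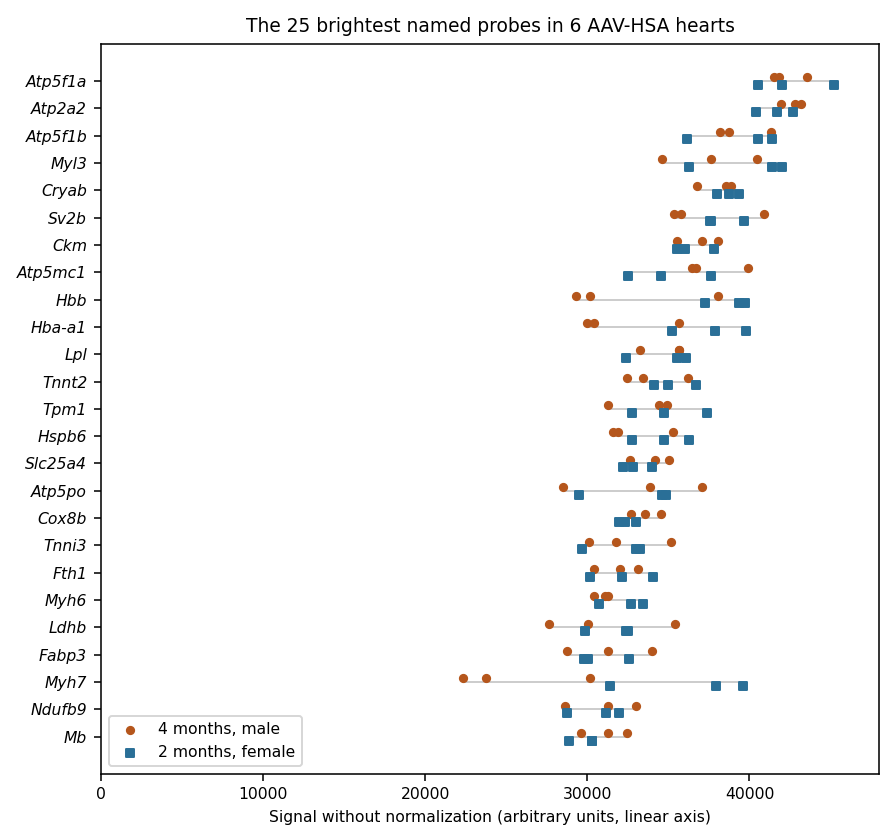
Non-normalized signal (horizontal axis, arbitrary units) of the 25 brightest named probes in the 6 AAV-HSA hearts, with 1 point per heart, 4-month males and 2-month females marked apart, and a grey line over the range. The means run from 30467 for Mb to 42448 for Atp5f1a, and the points of Myh7 and Hbb are the widest.

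The globins and Myh7 varied most among these genes. The globins Hbb and Hba-a1, carried by red blood cells in the tissue, ranked 11 and 14 with CVs of 13.1% and 11.3%. The signals of Hbb were 38083, 30192 and 29319.5 in hearts 1, 3 and 5, against 37236, 39697 and 39385 in hearts 2, 4 and 6, so that hearts 3 and 5 were low. Myh7, the slow beta myosin heavy chain, had the largest CV of the 25 (22.9%). Its signals were 30195, 22328 and 23774 in hearts 1, 3 and 5, against 37948, 39618 and 31387 in hearts 2, 4 and 6, and the groups did not overlap. Such a split, with all 3 males below all 3 females, was found in 7.20% of all detected probes by normalized values. Ranks near the top were therefore loosely ordered: for Hbb the first probe dimmer in every heart stood at rank 28, for Mb at 36 and for Myh7 at 64.

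The signal was spread over many transcripts. The 10 brightest of the detected probes held 2.81% ± 0.08 of the summed signal of all 22517 probes, detected or not. The 50 brightest held 11.5% ± 0.3, the 100 brightest 18.8% ± 0.3 and the 500 brightest 43.9% ± 0.5 (SD, n = 6). After background correction the 50 brightest held 14.25%. Of the 100 brightest probes, 78 were named.

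Genes of oxidative phosphorylation filled the top of the order, as counted against the 6.34% of all detected probes that make up the 500 brightest. In complex I, the NADH dehydrogenase, 25 of 27 measured subunit genes were detected and 23 of them were among the 500 brightest. Its brightest members were Ndufb9, Ndufb5 and Ndufa5, with mean signals of 30795, 26174 and 23059.9, while Ndufa7 averaged 224 and Ndufs4 was detected in no heart. All 4 measured genes of complex II and all 4 of complex III were among the 500 brightest, and those of complex III, including Uqcrh (28642) and the Rieske iron-sulphur protein Uqcrfs1 (24363), were all among the 100 brightest. Complex IV, cytochrome c oxidase, had 8 of 9 there, with Cox8b, Cox6a2 and Cox4i1 at 33006, 28852 and 26924, and Cox6c at 289. For the ATP synthase, 11 of the 12 measured subunit genes of the list used were detected, and these 11 were among the 500 brightest. Atp5mk, a small subunit outside the list, was detected at rank 5335. The subunits of 1 complex assemble together, and their signals differed nonetheless by over 100-fold within complex I, between Ndufb9 and Ndufa7.

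The supply of fuel followed. In the TCA cycle 9 of 13 measured genes were among the 500 brightest, led by the malate dehydrogenases Mdh1 and Mdh2 and by Ogdh of the 2-oxoglutarate dehydrogenase (25821, 23304.5 and 19219.5), whereas citrate synthase (Cs) averaged 2301. In fatty acid beta-oxidation 13 of 18 were, led by the dehydrogenase Acadl (26090.4), the trifunctional protein subunit Hadhb (20746) and Acadm (20728). Glycolysis had 8 of 13, with Ldhb, Aldoa and Tpi1 at 31306, 18417 and 17125 and Gapdh at 13737. Of 50 measured genes of cytosolic ribosomal proteins 44 were detected and 32 were among the 500 brightest, but only Rplp0 (29574) was among the 100 brightest. The lists differed little between hearts, since the median SD of the normalized log2 values over their detected members was 0.08 for complex I, 0.09 for the ATP synthase, 0.11 for beta-oxidation, 0.12 for glycolysis and 0.11 for the ribosomal proteins, against 0.16 over all detected probes. Bright probes vary less in general, as given below.

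All 18 measured genes of the thick and thin filaments and the Z-disc were detected, 14 of them among the 500 brightest, with a median SD of 0.10. Calcium cycling was less uniform in signal. Beside Atp2a2 at rank 2, Hrc, a calcium-binding protein of the sarcoplasmic reticulum, averaged 6255.5, the calcium store protein Casq2 averaged 1642, the release channel Ryr2 878 and the L-type channel subunit Cacna1c 1143.5, and the sodium-calcium exchanger Slc8a1 was detected in 5 of the 6 hearts.

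Isoforms were compared within each heart as the difference of the normalized log2 values, the first-listed form minus its relative. A positive value means a brighter first-listed form. This was the adult heart or muscle form in most families. Exceptions were the natriuretic peptides, pyruvate dehydrogenase kinases, superoxide dismutases and fibrillar collagens. The families were listed with earlier results of these data known. Of 74 pairs in 37 families, both members were detected for 54. The first-listed form was brighter in all 6 hearts for 41 of these pairs, the relative was brighter in all 6 for 9, and the sign was mixed for 4. The 9 came from the excepted families and from Actc1 against Acta1 and Actb. The counts therefore do not measure the use of adult heart forms. In 8 more pairs the relative was detected in no heart, and in 12 a member was detected in some hearts only. The SD of the difference over hearts ran from 0.04 to 0.80 with a median of 0.21. A constant offset between probes cancels in it, but the noise of a dim probe does not. As an example, the values of the dim Jph2 probe had an SD of 0.46, or 0.20 without background correction.

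In several sarcomere families the first-listed form stood far above its relatives. Actin and the pair of Myh6 and Myh7, given below, did not share this. Tnnt2 exceeded the slow skeletal troponin T Tnnt1 by 9.12 ± 0.13 (SD, n = 6, as below) on the log2 scale. For troponin I, the slow skeletal form Tnni1, which precedes Tnni3 during heart development, was detected in no heart, which put Tnni3 at least 586.5-fold higher in signal. In such bounds the normalized value of the heart form was set against the lowest value of a detected probe in each heart, or the relative's own value where that was higher. Myh6 was at least 576-fold above the embryonic Myh3, and the muscle alpha-actinin Actn2 was at least 425-fold above both Actn1 and Actn3. The troponin C of cardiac and slow muscle (Tnnc1) exceeded the fast form Tnnc2 by 6.89 ± 0.38, and Myl3 exceeded the fast skeletal Myl1 by 7.47 ± 0.23. Tpm1 exceeded Tpm3 by 6.68 ± 0.16 and Tpm4 by 4.71 ± 0.16. The differences of Myl2 were smaller, at 3.04 ± 0.66 from Myl7 and 2.03 ± 0.205 from Myl9.

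The myosin heavy chains of the ventricle formed the closest sarcomeric pair. Myh6, the fast alpha form, predominates in rodents, while Myh7 is the slower and more economical beta form. Myh6 minus Myh7 was 0.06, 0.53 and 0.38 in hearts 1, 3 and 5, against -0.23, -0.34 and 0.11 in hearts 2, 4 and 6, with a mean of 0.085 ± 0.34. The sign thus differed between hearts, with Myh7 brighter in hearts 2 and 4. The spread came mostly with Myh7 (SD 0.32) and less with Myh6 (SD 0.10). The signal of the non-muscle relative Myh10 was lower than that of Myh6 in every heart, by 127.5-fold on average.

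Actin showed the opposite order. The difference of Actc1 from Acta1, the skeletal alpha actin that the heart expresses before birth and under load, was -3.565, -4.00 and -3.26 in hearts 1, 3 and 5, against -5.13, -4.95 and -4.18 in hearts 2, 4 and 6. All 3 males lay above all 3 females, a split that 8.03% of all detected probes showed by their own values. The SD of 0.74 was among the largest of the pairs and followed Acta1, described below. Since the Actc1 probe was dim, the negative sign cannot be read as an excess of skeletal actin.

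**Figure D2:**
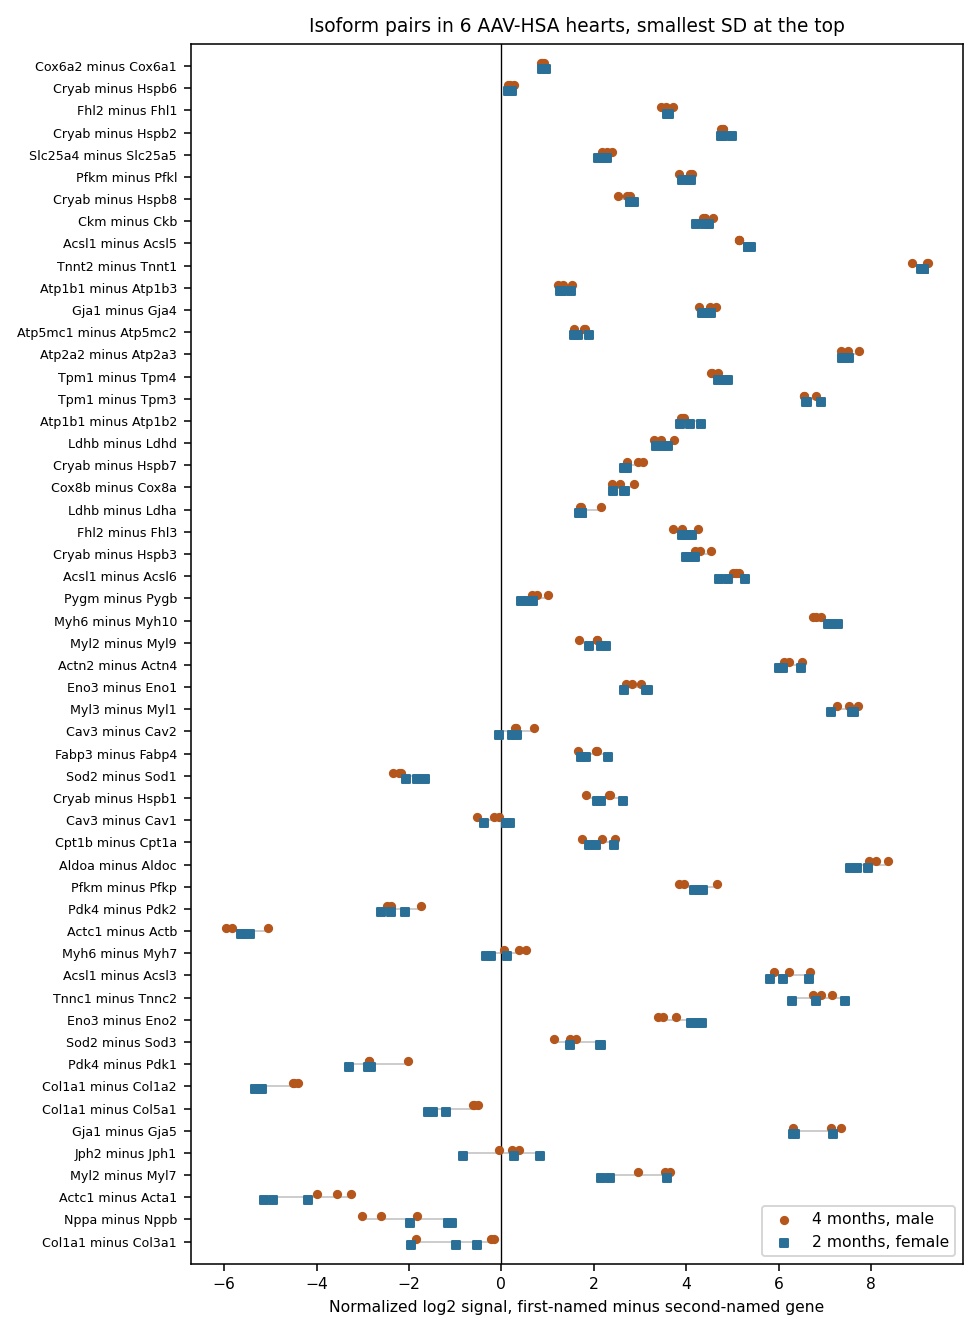
Difference of normalized log2 values (horizontal axis) between the first-listed form and its relative for the pairs with both members detected. Each heart is 1 point, with 4-month males and 2-month females marked apart. A grey line covers the range, a vertical line marks 0, and pairs are ordered down the page by increasing SD. Most pairs lie to the right of 0 with a narrow spread, Myh6 minus Myh7 straddles 0, and Actc1 minus Acta1 and Col1a1 minus Col3a1 are negative and wide.

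Pairs of energy metabolism had SDs on both sides of the median of all pairs. The narrowest was that of the cytochrome c oxidase subunit 6a, where the muscle form Cox6a2 exceeded the widespread form Cox6a1 by 0.885, 0.86 and 0.92 in hearts 1, 3 and 5, against 0.96, 0.89 and 0.92 in hearts 2, 4 and 6, a 1.87-fold signal with an SD of 0.035 on the log2 scale. Cox8b exceeded Cox8a by 2.595 ± 0.18, Slc25a4 exceeded Slc25a5 by 2.25 ± 0.105, and Atp5mc1 exceeded Atp5mc2 by 1.715 ± 0.14. Ckm, the muscle creatine kinase, was 4.41 ± 0.12 above the brain form Ckb. Among glycolytic enzymes the muscle forms Pfkm and Eno3 were 4.03 ± 0.12 and 2.91 ± 0.22 above Pfkl and Eno1, and Aldoa was 7.93 ± 0.29 above Aldoc. Their other pairs were wider, with Eno3 3.90 ± 0.40 above Eno2 and Pfkm 4.21 ± 0.295 above Pfkp.

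Ldhb, the lactate dehydrogenase subunit that prevails in tissues oxidizing lactate, exceeded the muscle subunit Ldha by 2.15, 1.69 and 1.72 in hearts 1, 3 and 5, against 1.75, 1.67 and 1.75 in hearts 2, 4 and 6. Heart 1 stood apart, and the other 5 lay between 1.67 and 1.75. In glycogen breakdown the muscle phosphorylase Pygm was 0.69 ± 0.20 above the brain form Pygb. The insulin-responsive glucose transporter Slc2a4 was detected throughout while the basal transporter Slc2a1 was detected in no heart, a bound of at least 76.0-fold in signal.

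For fatty acids, the muscle carnitine palmitoyltransferase Cpt1b, the gate of long-chain entry into mitochondria, was 2.13 ± 0.29 above the liver form Cpt1a. Fabp3 was 1.94 ± 0.24 above Fabp4, a form of endothelial cells and adipocytes, and the acyl-CoA synthetase Acsl1 was 5.03 ± 0.20 above Acsl6, 6.23 ± 0.37 above Acsl3 and at least 133-fold above Acsl4. Pyruvate dehydrogenase kinases, which hold back glucose oxidation, went the other way. Pdk4, the form induced by fasting, was dimmer than Pdk2 and Pdk1 in every heart, with differences of -2.285 ± 0.31 and -2.79 ± 0.42. Pdk4 minus Pdk1 was -2.86, -2.86 and -2.01 in hearts 1, 3 and 5, against -2.83, -2.88 and -3.29 in hearts 2, 4 and 6, with heart 5 the highest.

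Other families also had a leading member. Atp2a2 exceeded Atp2a3, the calcium pump of non-muscle cells, by 7.48 ± 0.14. Gja1 (connexin 43), which couples ventricular cells, exceeded the arterial and conduction connexin Gja5 by 6.78 ± 0.495 and Gja4 by 4.46 ± 0.14. Cryab and Hspb6 were nearly level at 0.19 ± 0.05, and Fhl2 exceeded Fhl1 by 3.59 ± 0.08. Natriuretic peptides lower blood pressure and volume after release from stretched myocardium, and here the atrial peptide gene Nppa was below the brain natriuretic peptide gene Nppb in every heart, with Nppa minus Nppb at -1.94 ± 0.77. The superoxide dismutases also had a negative difference, with mitochondrial Sod2 minus cytosolic Sod1 at -2.05 ± 0.26 and all 3 males below all 3 females. Of the 54 pairs with both members detected, 10 had groups that did not overlap. The signs of Jph2 minus Jph1 and of Cav3 minus Cav1 or Cav2 were mixed over the hearts.

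Markers of cell types were counted as detected in all 6 hearts, each by its brightest named probe. Of all probes 35.0% were so detected, and of the 13787 named probes, the closer comparison, 6009 were. For cardiomyocytes all 21 measured markers were detected and 14 were among the 100 brightest probes, and the summed signal was 427396 to 465478.5 in the 4-month males and 427068 to 457342 in the 2-month females. Of 14 endothelial markers 12 were detected, led by Fabp4 (8321), the water channel Aqp1 (4458), Emcn (2379.5) and the tight junction protein Cldn5 (1379), while Cdh5 and Robo4 were detected in no heart. Fibroblast markers were detected for 13 of 14, led by Gsn (16331), Dcn (12034), Col1a2 (8443) and Mgp (5630.4). These lists were not tested against each other, and in bulk tissue fewer cells of a type and less RNA per cell cannot be told apart.

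Vascular mural cells were represented by 7 of 11 markers. The brightest, the intermediate filament Des (22331), is also a cardiomyocyte gene, and Cnn1 and Notch3 were detected in no heart. Macrophage markers were detected for 6 of 10, among them Cd74 (1773), the invariant chain of MHC class II, and the complement genes C1qa, C1qb and C1qc, while Cd163, Adgre1 and Fcgr1a were detected in no heart. Of 10 markers of T and natural killer cells only Prf1 and Nkg7 were detected, and Cd3d, Cd3g, Cd5 and Gzmb in no heart. None of 3 B cell, 7 neutrophil, 7 mast cell and 7 cell division markers was detected in all 6 hearts, although the mast cell protease Tpsb2 was detected in 5.

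Tissues next to the myocardium gave few markers. Of 7 adipocyte markers Cidea (3212) and Cfd were detected, and Lep, Ucp1 and Retn in no heart. Cidea is a lipid droplet protein, so that its signal alone does not mark adipocytes. Schwann cell and nerve markers were detected for 3 of 8 (Pmp22 at 1401, Dbh at 217.5 and Ngfr at 202), and epicardial markers for 1 of 6, Wt1. Of 8 skeletal muscle markers only Acta1 and Tnnc2 were detected, and Myh2, Myh4, Myl11 and Actn3 in no heart. Lymphatic endothelial markers were detected for 3 of 4, conduction system markers for 2 of 5 and hepatocyte markers for 2 of 6. Red blood cells were represented by 5 of 7 markers, led by the globins.

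**Figure D3:**
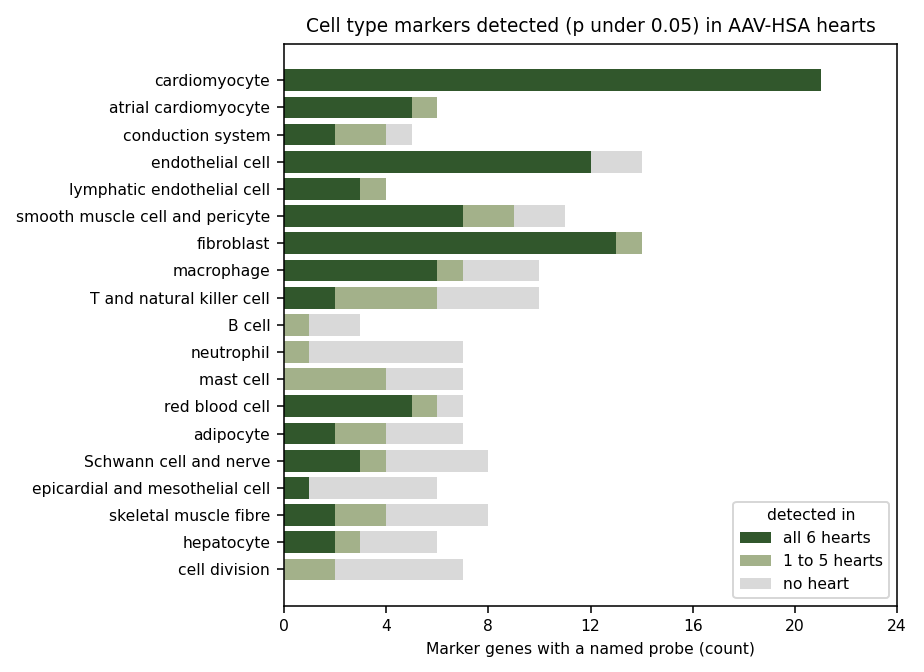
Number of marker genes with a named probe (horizontal axis, count) for each cell type, split by the number detected in all 6 AAV-HSA hearts, in some hearts and in none. All 21 cardiomyocyte markers and 13 of 14 fibroblast markers were detected throughout, and no B cell, neutrophil, mast cell or cell division marker was.

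Spread between hearts was described by the SD of the normalized log2 value. Its median over the detected probes was 0.16, and 90% of the probes had an SD of at most 0.29. An SD over 0.5 was found for 116 probes (1.47%), of which 90 were named, and 8 probes had an SD over 1. The spread was larger at low signal, with a median SD of 0.21, 0.16 and 0.125 in the dim, middle and bright of 3 equal parts of the order, but the 116 probes were drawn from all 3 parts (46, 37 and 33). In 26 of the 116 the groups did not overlap, with all 3 males above all 3 females in 12 and below in 14. Over all detected probes these shares were 8.03% and 7.20%. Heart 2 held the lowest value for 31 of the 116 probes and heart 6 the highest for 31, the most of any heart. At the other end, the glycogen branching enzyme Gbe1 had an SD of 0.017, with normalized log2 values of 10.2 in every heart, and Skp1, of a ubiquitin ligase, and Samm50, of the mitochondrial outer membrane, had SDs of 0.021 and 0.026.

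**Figure D4:**
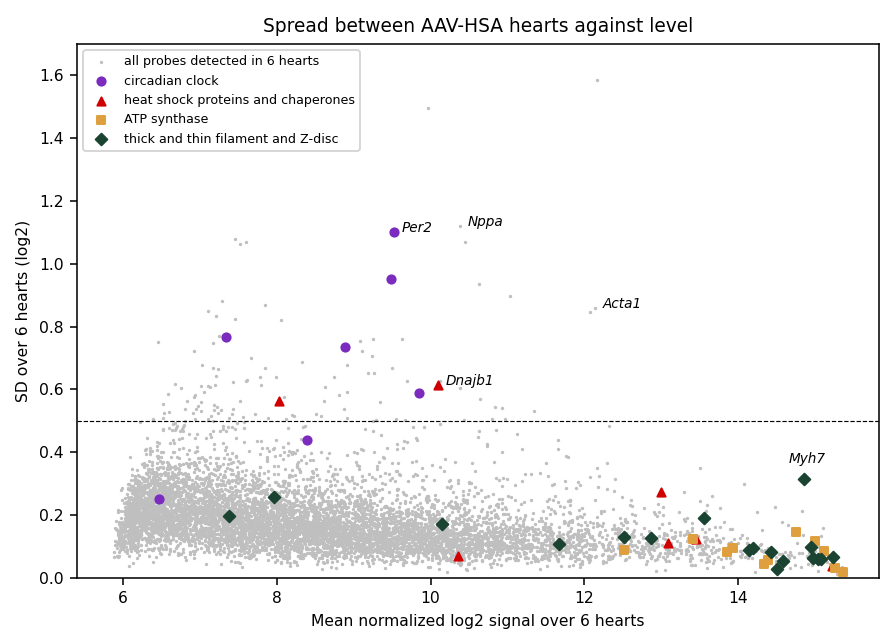
SD between the 6 AAV-HSA hearts (vertical axis, log2 units) against the mean normalized log2 value (horizontal axis) for the detected probes, with a dashed line at 0.5 and the members of 4 gene lists (clock, heat shock, ATP synthase, filaments and Z-disc) marked. The cloud narrows to the right, and 116 probes lie above the line, among them Nppa, Per2, Acta1 and Dnajb1, while none of the marked members of the ATP synthase list or of the filament and Z-disc list does.

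Nppa was the most variable named gene (SD 1.12). Its normalized log2 values were 9.35, 10.65 and 8.79 in hearts 1, 3 and 5, against 10.46, 11.35 and 11.67 in hearts 2, 4 and 6, a 7.36-fold range. Hearts 1 and 5 were low and hearts 4 and 6 high, while heart 3 lay among the females. Of 6 measured genes that mark atrial cardiomyocytes 5 were detected. Nppa and the atrial light chain Myl7 (SD 0.61) had an SD over 0.5, against 1.47% of all detected probes. Myl7 was 6.51, 7.46 and 6.47 in hearts 1, 3 and 5, against 6.695, 7.68 and 7.80 in hearts 2, 4 and 6, with hearts 3, 4 and 6 high. The connexin Gja5, also of the atria, had its 3 highest values in the same hearts (7.27, 7.32 and 7.28). The other detected members did not share this order, as Dkk3 was lowest in heart 3 (6.74) and highest in heart 2 (7.73), and Pam was lowest in heart 5 (9.96) and within 10.39 to 10.67 elsewhere. Without background correction the SD of Myl7 was 0.31, which left Nppa as the 1 member over 0.5. The sum of the signals of this list was 2351 to 4049 in males and 4219 to 5547 in females. Nppa alone was 551 to 1719 in males and 1611 to 2990 in females, so that much of the spread of the sum came from it. The part of tissue sampling in this spread was not tested.

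The genes nearest to Nppa in their profile over the 6 hearts, by the Euclidean distance of centred values among 535 probes with an SD over 0.3, were Pdia2 (distance 1.02), Zcchc9 (1.03) and Myl7 (1.36). Pdia2, a protein disulphide isomerase, was 6.28, 6.75 and 6.24 in hearts 1, 3 and 5, against 7.17, 7.82 and 8.35 in hearts 2, 4 and 6. Both Pdia2 and Zcchc9 had all 3 males below all 3 females, as did 7.20% of all detected probes. Their SDs of 0.85 and 1.06 were 0.46 and 0.59 without background correction.

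Acta1, which re-appears in loaded myocardium together with Nppa, ranked 449 by mean signal and had an SD of 0.86. Its normalized log2 values were 11.40, 12.42 and 10.90 in hearts 1, 3 and 5, against 13.07, 12.95 and 12.14 in hearts 2, 4 and 6. As for Nppa, hearts 1 and 5 were the lowest and heart 3 lay among the females. The promoters of both genes hold a TATA box, the element that positions the start of transcription, here TATAAA on either strand between 60 and 16 bases before the start. This word was found in 3.63% of all promoters in the RefSeq set (build GRCr8), in 2.68% of those of the named detected genes, in 9 of 72 (12.5%) named genes with an SD over 0.5 and in 8 of 67 (11.9%) named genes among the 100 brightest, Mb included. The stretches below show the box in capitals in Nppa (chr5:163712118-163712177, plus strand), Acta1 (chr19:68784195-68784254, minus strand), Mb (chr7:110647770-110647829, minus strand) and RT1-A2 (chr20:4872811-4872870, plus strand), the most variable gene of MHC class I.
Nppa: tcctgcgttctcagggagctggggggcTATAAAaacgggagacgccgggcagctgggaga
Acta1: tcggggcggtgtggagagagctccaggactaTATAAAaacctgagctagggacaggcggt
Mb: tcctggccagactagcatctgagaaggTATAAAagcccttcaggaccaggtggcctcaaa
RT1-A2: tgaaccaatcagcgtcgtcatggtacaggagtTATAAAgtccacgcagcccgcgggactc

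Among the pathway lists, that of the circadian clock had the largest median SD (0.74 over its detected members). The clock is a feedback loop in which CLOCK and BMAL1 switch on the Per and Cry genes through E-boxes, and PER and CRY proteins then repress them, while NR1D1 represses Bmal1 and proteins such as TEF and DBP act through D-boxes. Of 12 measured clock genes 7 were detected and 5 of these had an SD over 0.5, against 1.47% of all detected probes. Without background correction 3 of them did (Per2, Per1 and Bhlhe40), with Tef at 0.37 and Nr1d1 at 0.498. Per2 was 9.52, 10.42 and 9.64 in hearts 1, 3 and 5, against 7.42, 10.39 and 9.75 in hearts 2, 4 and 6 (SD 1.10). Heart 2 was the lowest by 2.10, and without it the SD of Per2 was 0.43. Per1 was 10.17, 10.20 and 9.09 in hearts 1, 3 and 5, against 7.75, 10.09 and 9.64 in hearts 2, 4 and 6 (SD 0.95, or 0.47 without heart 2).

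The other members repeated this picture. Tef was 5.85 in heart 2 and 7.18 to 7.85 elsewhere (SD 0.77, or 0.27 without heart 2), Bhlhe40, a repressor of the loop, was 7.54 in heart 2 and 8.84 to 9.71 elsewhere (SD 0.74, or 0.37), and Nr1d1 was 8.79 in heart 2 and 9.74 to 10.53 elsewhere (SD 0.59, or 0.31). Without heart 2 none of the 7 detected clock genes had an SD over 0.5. The opposite order was seen in Cry1, which peaks later than the Per genes in rodent tissues and was 9.20 in heart 2 and 7.94 to 8.54 elsewhere. Bmal1, detected in 4 hearts, was also highest in heart 2 (7.71, against 5.70 to 6.12 elsewhere). Dbp, a known high-amplitude output of the clock, had a dim probe and an SD of 0.25, and Clock and Cry2 were detected in no heart. The time of day of sampling is not given in the sources used here, and its part was not tested.

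Clock elements were searched in the 250 bases before the start of transcription. The E-box CACGTG, which reads the same on both strands, was found in 6.18% of all promoters, in 8.90% of those of the named detected genes and in 7 of 72 (9.72%) named genes with an SD over 0.5, a share close to the background. The D-box TTATGTAA, on either strand, was found in 0.885% of all promoters and in 0.463% of those of the named detected genes. Stretches with the element in capitals are shown for the genes low in heart 2 that hold one, namely Tef (chr7:115206602-115206661, plus strand), Bhlhe40 (chr4:143174203-143174262, plus strand), Nr1d1 (chr10:84229613-84229672, minus strand, 1 of 2 entries) and, with a D-box, Per2 (chr9:99497152-99497211, minus strand). The window of Per1 held neither word, and a match or its absence says nothing of binding in these hearts.
Tef: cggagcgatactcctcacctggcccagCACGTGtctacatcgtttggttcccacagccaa
Bhlhe40: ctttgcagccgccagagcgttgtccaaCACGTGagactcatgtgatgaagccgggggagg
Nr1d1: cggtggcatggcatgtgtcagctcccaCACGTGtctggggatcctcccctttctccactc
Per2: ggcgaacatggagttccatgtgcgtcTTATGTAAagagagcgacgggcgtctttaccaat

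Retsat and Phlda1 shared the low value in heart 2. Retsat, which saturates retinol, was 10.83, 11.42 and 10.65 in hearts 1, 3 and 5, against 8.35, 10.71 and 10.77 in hearts 2, 4 and 6 (SD 1.07, or 0.31 without heart 2). Phlda1 was 5.80 in heart 2 and 7.08 to 7.89 elsewhere (SD 0.75, or 0.36 either without heart 2 or without background correction). Of 10 detected genes known to respond to glucocorticoids, a hormone class with a daily rhythm, 3 had an SD over 0.5 (Per1, Mt1 and Ddit4). The share over all detected probes was 1.47%. The count was 1, Ddit4, without heart 2 and 1, Per1, without background correction. Per1 is also a member of the clock list. Ddit4 did not share the low value, as it was lowest in heart 5 (7.91), highest in heart 3 (9.46) and 8.32 in heart 2. The metallothionein Mt1 was lowest in heart 2 at 9.83, against 10.81 to 11.39 elsewhere.

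**Figure D5:**
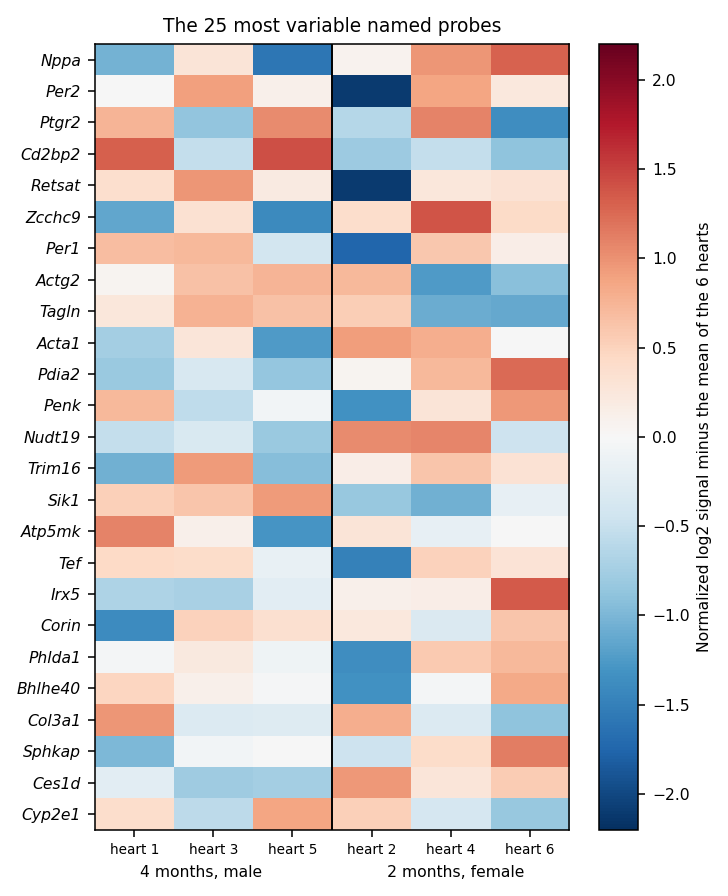
Deviation of the normalized log2 value from the gene's mean (colour, log2 units) for the 25 most variable named genes (down) in the 6 AAV-HSA hearts (across, 4-month males left of 2-month females). Per2, Retsat, Per1, Tef, Phlda1 and Bhlhe40 share a low value in heart 2, while Nppa and Acta1 are low in hearts 1 and 5.

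Heat shock proteins and chaperones varied by heart 3. Of 7 detected members, the co-chaperone Dnajb1 and the inducible chaperone Hsp90aa1 had an SD over 0.5 (0.61 and 0.56). The share over all detected probes was 1.47%, and neither gene exceeded 0.5 without heart 3 (0.27 and 0.25). Without background correction Dnajb1 did (0.56) and Hsp90aa1 did not (0.40). Dnajb1 was 10.11, 11.25 and 10.14 in hearts 1, 3 and 5, against 9.59, 9.88 and 9.59 in hearts 2, 4 and 6, and Hsp90aa1 was 9.08 in heart 3 and 7.56 to 8.22 elsewhere. Dnaja1, another co-chaperone named here after its values were seen, was 12.38 in heart 3 and 10.91 to 11.31 elsewhere. Hspb1 was also highest in heart 3 (13.44, against 12.64 to 13.12), whereas Cryab, Hspd1 and Hspa5 had SDs of 0.04, 0.12 and 0.11. The heat shock factor binds inverted repeats of GAA units, of which GAANNTTC, the same on both strands, is a minimal pair. It was found in 7.71% of all promoters, in 5.01% of those of the named detected genes and in 7 of 72 (9.72%) named genes with an SD over 0.5. Among those variable genes, Pla2g2a, Ifi47 and Aox1 hold the word and were lowest in heart 3. P4ha1 was highest in heart 3 and its window held no match, and Hsp90aa1 had no promoter window. A match or its absence says nothing of binding in these hearts. The word is shown in capitals for Dnajb1 (chr19:41431142-41431201, minus strand), Dnaja1 (chr5:60638197-60638256, plus strand) and Hspb1 (chr12:26432377-26432436, minus strand), chosen among genes highest in heart 3.
Dnajb1: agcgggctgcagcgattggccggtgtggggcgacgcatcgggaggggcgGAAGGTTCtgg
Dnaja1: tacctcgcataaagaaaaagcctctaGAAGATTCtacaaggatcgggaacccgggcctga
Hspb1: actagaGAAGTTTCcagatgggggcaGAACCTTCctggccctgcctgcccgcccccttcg

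Tagln, Actg2 and Eln had their lowest values in hearts 4 and 6. Tagln, an actin-binding protein of contractile mural cells, was 8.10, 8.62 and 8.50 in hearts 1, 3 and 5, against 8.40, 6.77 and 6.73 in hearts 2, 4 and 6 (SD 0.87). Actg2, the enteric smooth muscle actin, was 7.34, 7.92 and 8.03 in hearts 1, 3 and 5, against 8.002, 6.04 and 6.36 in hearts 2, 4 and 6 (SD 0.88). Elastin (Eln), which vessel walls contain, was 6.87, 7.73 and 8.03 in hearts 1, 3 and 5, against 7.48, 6.51 and 6.42 in hearts 2, 4 and 6 (SD 0.67). Actg2 and Eln are not in the mural cell list, and the other 6 detected members of that list (Des, Smtn, Abcc9, Cspg4, Kcnj8 and Higd1b) had SDs of 0.08 to 0.17, so that the list as a whole did not share the low values. Over the list, of which 7 of 11 were detected, the summed signal was 28524 to 32169 in the males and 25780.4 to 32157 in the females, with most of it from Des, and the amount of vessel in each sample was not measured. Without background correction these dim probes had smaller SDs (0.51 for Tagln, 0.45 for Actg2 and 0.35 for Eln).

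Of 13 detected immediate early genes, which respond to stimuli within minutes, only Junb had an SD over 0.5, against 1.47% of all detected probes. Junb was 9.63, 8.25 and 10.15 in hearts 1, 3 and 5, against 8.88, 9.12 and 9.08 in hearts 2, 4 and 6 (SD 0.65, or 0.50 without heart 5), and Fos was detected in 1 of the 6 hearts. Of 15 measured genes of the interferon response list 7 were detected, none with an SD over 0.5. The list does not hold every interferon-induced gene. Outside it, and picked after their values were seen from the probes over 0.5, were Ifi47 (SD 0.63), Oasl2 (0.61), Cxcl11 (0.60), Cxcl9 (0.53) and Rtp4 (0.51). Interferon-induced genes outside the list were not counted, so that these genes give no share to set against it. Ifi47 was highest in heart 1, Cxcl11 in heart 6 and the others in heart 4. Apart from Cxcl11 their probes were dim, with mean signals of 286 to 348.

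Matrix and antigen presentation differed in other hearts. Of 17 detected extracellular matrix genes only Col3a1 and Eln had an SD over 0.5, against 1.47% of all detected probes. Col3a1, a fibrillar collagen, was 10.08, 8.82 and 8.83 in hearts 1, 3 and 5, against 9.91, 8.81 and 8.23 in hearts 2, 4 and 6, so that hearts 1 and 2 were high, which also gave Col1a1 minus Col3a1 the largest SD of all pairs (0.80). The steadiest bright matrix genes, Dcn and Lamb2, had SDs of 0.092 and 0.09. Among genes of MHC class I and II, which present peptides to T cells, heart 1 had the highest value for RT1-A2 (10.56, against 8.82 to 9.99 elsewhere, SD 0.67, or 0.47 without heart 1), RT1-A1, RT1-Da, RT1-Db1 and B2m. MHC class I genes are near-identical copies that differ between animals, and a probe may bind several of them.

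Corin, Irx5, Atp5mk and Penk were also among the 25 most variable named genes. Corin, the protease that activates the atrial natriuretic peptide, was 7.69 in heart 1 and 8.76 to 9.69 elsewhere (SD 0.75, or 0.36 without heart 1). Irx5, a transcription factor known from mice to set the repolarization gradient of the ventricle, was 8.57, 8.545 and 9.03 in hearts 1, 3 and 5, against 9.37, 9.41 and 10.60 in hearts 2, 4 and 6 (SD 0.76, or 0.42 without heart 6). Atp5mk, a small ATP synthase subunit, was 5.96 in heart 5 and 7.08 to 8.34 elsewhere (SD 0.77, or 0.49 without heart 5 and 0.40 without background correction). Penk, the precursor of the enkephalin opioid peptides and a known cardiac transcript in rats, was bright at rank 481 and was 12.78, 11.52 and 12.01 in hearts 1, 3 and 5, against 10.74, 12.35 and 13.03 in hearts 2, 4 and 6, with the groups overlapping.

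Cd2bp2 and the kinase gene Sik1 had all 3 males above all 3 females, and Zcchc9, Irx5 and the carboxylesterase Ces1d all 3 males below. Over all detected probes such splits were found in 8.03% and 7.20%. Cd2bp2 was 8.91, 7.08 and 9.02 in hearts 1, 3 and 5, against 6.80, 7.07 and 6.72 in hearts 2, 4 and 6, so that heart 3 was barely above the females. Ces1d was 9.02, 8.45 and 8.495 in hearts 1, 3 and 5, against 10.19, 9.51 and 9.79 in hearts 2, 4 and 6. Ptgr2, a prostaglandin reductase, fell into separate levels that crossed the groups, at 8.20, 6.59 and 8.49 in hearts 1, 3 and 5, against 6.82, 8.54 and 6.08 in hearts 2, 4 and 6. Similar jumps were made by the 2 most variable probes of all, which have no gene name here. The first was 13.90, 10.54 and 10.73 in hearts 1, 3 and 5, against 13.64, 13.27 and 10.95 in hearts 2, 4 and 6 (SD 1.59), and the second was 7.91, 10.73 and 10.95 in hearts 1, 3 and 5, against 8.18, 10.97 and 11.08 in hearts 2, 4 and 6. In the first 3 hearts and in the second 4 hearts lay above a gap of 2.31 and 2.55 with no value between. The count of probes with an SD over 0.5 depended on the background correction and was 32 without it, where the SDs of Cd2bp2, Ptgr2 and Sik1 were 0.68, 0.60 and 0.53.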

How the data were processed

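Total RNA of each left ventricle was hybridized as labelled cRNA to 1 Illumina RatRef-12 array, without pooling. The authors exported intensities without normalization and a detection p-value for each probe from GenomeStudio; the sources used here do not say whether background was subtracted at export. The deposited table of log2 values had been quantile normalized by the authors and served as an alternative. Probes were named through the platform annotation (13787 of 22517 with 1 symbol, 8730 without). Ranks used the mean intensity of the 6 AAV-HSA arrays. For isoform differences and SDs, neqc of limma 3.58.1 (R 4.3.3; normexp background correction on the detection p-values, offset 16, quantile normalization, log2) was applied to these arrays, and the script was tested on simulated data. Where several probes shared a gene, the brightest was taken. No groups were tested, so that no p-values across hearts are given, and the number of arrays limits the precision. Nothing states that the hearts were processed in batches. Genes were named by fixed rules: the 25 brightest and the 25 most variable named probes, members of isoform families, up to 4 of the brightest markers per cell type with undetected ones, the brightest and most variable pathway members, and the 3 nearest to the most variable gene. The members and lists were chosen with earlier results of these data known. Promoter windows came from RefSeq (GRCr8) and were found for 4969 of the 5921 named detected genes.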

Additional observations from a re-analysis of the deposited data

Results flagged for a closer look

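In 8 of 131 values examined, 1 heart lay far from the other 5, with a gap to its neighbour of more than 0.625 of the whole range over 6 hearts. For values not picked by their spread, chance alone flags about 1 in 20 groups. The values here included the most variable named genes, picked by their SD over the same 6 hearts, for which this rate does not hold. The number of flags was not tested against chance. Heart 2 was the lowest for Per2 (gap share 0.699), Retsat (0.749) and Tef (0.666) and for the mean deviation of the circadian clock list (0.68, a gap of 0.92 on the log2 scale), and it was the highest for Cryab minus Hspb2 (0.749, a gap of 0.18). Heart 1 was the highest for Ldhb minus Ldha (0.834, a gap of 0.40), heart 5 was the highest for Pdk4 minus Pdk1 (0.635, a gap of 0.81), and heart 3 was the highest for the mean deviation of the heat shock and chaperone list (0.698, a gap of 0.45). Per2 and Tef belong to the clock list, so that these flags are not independent of each other. No cause was tested.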

How the results depend on the processing

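The number of detected probes was 7886, 6662 at a detection p under 0.01 and 9342 with detection in at least 3 hearts, and it was 7925 to 8083 when any 1 heart was left out. The share of the 50 brightest probes was 11.54%, or 14.25% of the background-corrected signals, and 11.43% to 11.61% with any 1 heart left out. The first-listed form was brighter in all hearts for 41 pairs under every alternative to the normalization, and for 41 to 42 with a heart left out. Markers detected in every heart numbered 85, 76 at the stricter p, 98 with at least 3 hearts, and 85 to 86 with a heart left out. The 116 probes with an SD over 0.5 became 32 without background correction and 30.0 in the deposited log2 table, 115 with median scaling, 118 with 12 arrays normalized together, 148 with at least 3 hearts, 94 with the SD taken within males and females, and 108 to 126 with a heart left out. Of 7 detected clock genes 5 had an SD over 0.5 and 0 without heart 2, and of the heat shock and chaperone genes 2 had one and 0 without heart 3. Without background correction these counts were 3 and 1, that of the glucocorticoid-responsive genes 1 instead of 3, and that of the atrial markers 1 instead of 2. These list checks were chosen after seeing the data. No isoform difference with 1 sign in all 6 hearts was reversed under these alternatives, and the mean changed sign once each for Myh6 minus Myh7, Jph2 minus Jph1 and Cav3 minus Cav1, whose signs were mixed. No paired analysis was possible because the values come from no test between groups. Dim probes lie close to background, which limits their SDs, and 6 arrays limit the precision of every SD.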
